A study of Mus musculus with 6 samples.

Results

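Immediate-early genes are transcribed within minutes of a signal at the cell surface, before any new protein has to be made. In thymocytes the signal that is best known to switch them on is the T cell receptor, which acts through calcium and calcineurin, the MAP kinases and the serum response factor, and the levels of Nr4a and Egr family genes are commonly read as a measure of how strongly the receptor was engaged. Fos, Fosb, Junb and Egr1 answer to many other stimuli and in many cell types, the handling of tissue among them. The genes described here are 10 such genes out of 20866 named on the array. They comprise the orphan nuclear receptors Nr4a1, Nr4a2 and Nr4a3, the zinc finger factors Egr1, Egr2 and Egr3, the AP-1 subunits Fos, Fosb and Junb, and Ier2, a small nuclear regulator of transcription. They were chosen by symbol, and each was represented by its brightest probe.

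The study compared thymic cells that lack both TNF and RelA, the p65 subunit of NF-kB, with cells that lack TNF alone, on the C57BL/6 background, in mice aged 1.5 to 2 weeks. The genotypes are labelled TNFalpha and RelA double KO (DKO here) and TNFalpha-KO (TNF-KO here), so that all cells lacked TNF and none was wild type, and no Cre or cell type restriction is given for either deletion. Within each genotype 3 sorted populations were profiled, namely CD4+CD25hi thymocytes, a gate that enriches regulatory T cells, from 5 pooled mice, and CD45-EpCAM+ cells of the thymic epithelium and a CD45+EpCAM- fraction of the stroma, each from 10 pooled thymi. Each of the 6 groups had 1 one-colour array, so the genotype difference within a population has no replicate check and no test. The 2 arrays of a population shared a slide, and the protocols describe enzymatic digestion and density separation for the stroma and none for the thymocytes. Slide and population therefore cannot be told apart in any comparison of populations, nor can digestion where the thymocytes are compared with a stromal fraction.

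Rela, the targeted gene, was lower in DKO cells in all 3 populations, at 2.66 on the DKO array and 4.52 on the TNF-KO array of CD4+CD25hi cells, 1.81 and 3.84 in CD45-EpCAM+ cells, and 3.30 and 4.04 in CD45+EpCAM- cells. All levels are log2 signal above the 75th percentile of the array. The summed linear level of 4 T cell markers (Cd3e, Cd3d, Cd4, Lck) was 252 on the DKO and 267 on the TNF-KO array of CD4+CD25hi cells. It was as high on the CD45+EpCAM- arrays, at 265 on both, and reached 94.9 and 50.4 on the DKO and TNF-KO arrays of CD45-EpCAM+ cells, and all 4 were well above background on every array. The 6 epithelial markers summed to 192 and 191 in CD45-EpCAM+ cells and to at most 0.349 elsewhere, and the 4 regulatory T cell markers to 116 and 101 in CD4+CD25hi cells. The sum of the 4 macrophage markers was highest in CD45+EpCAM- cells, at 11.7 and 7.44 on the DKO and TNF-KO arrays, against 5.73 and 4.57 in CD45-EpCAM+ cells. Among them Lyz2 alone was higher in CD45-EpCAM+ cells, at -1.51 and -0.081 against -1.69 and -1.32. The 5 dendritic cell markers summed to 171 and 155 on the DKO and TNF-KO arrays of CD4+CD25hi cells, 69.3 and 41.4 in CD45-EpCAM+ cells, and 118 and 122 in CD45+EpCAM- cells. Siglech was the brightest of them, at 7.42 and 7.28 in CD4+CD25hi cells and 6.87 and 6.89 in CD45+EpCAM- cells. In CD4+CD25hi minus CD45+EpCAM- cells 4 could be fitted, and 2 lay above 0 and 2 below. Of these 0 passed as higher and 2 as lower, beside 4.8% and 7.81% of all genes. Granulocyte markers (4 of 4 above background) summed to 22.3 and 5.95 in CD45+EpCAM- cells and to 8.24 and 31.5 in CD45-EpCAM+ cells. Signal also differed between arrays: 47.3% to 66.2% of probes were well above background, and the dimmest array was that of DKO CD45-EpCAM+ cells.

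**Figure D1:**
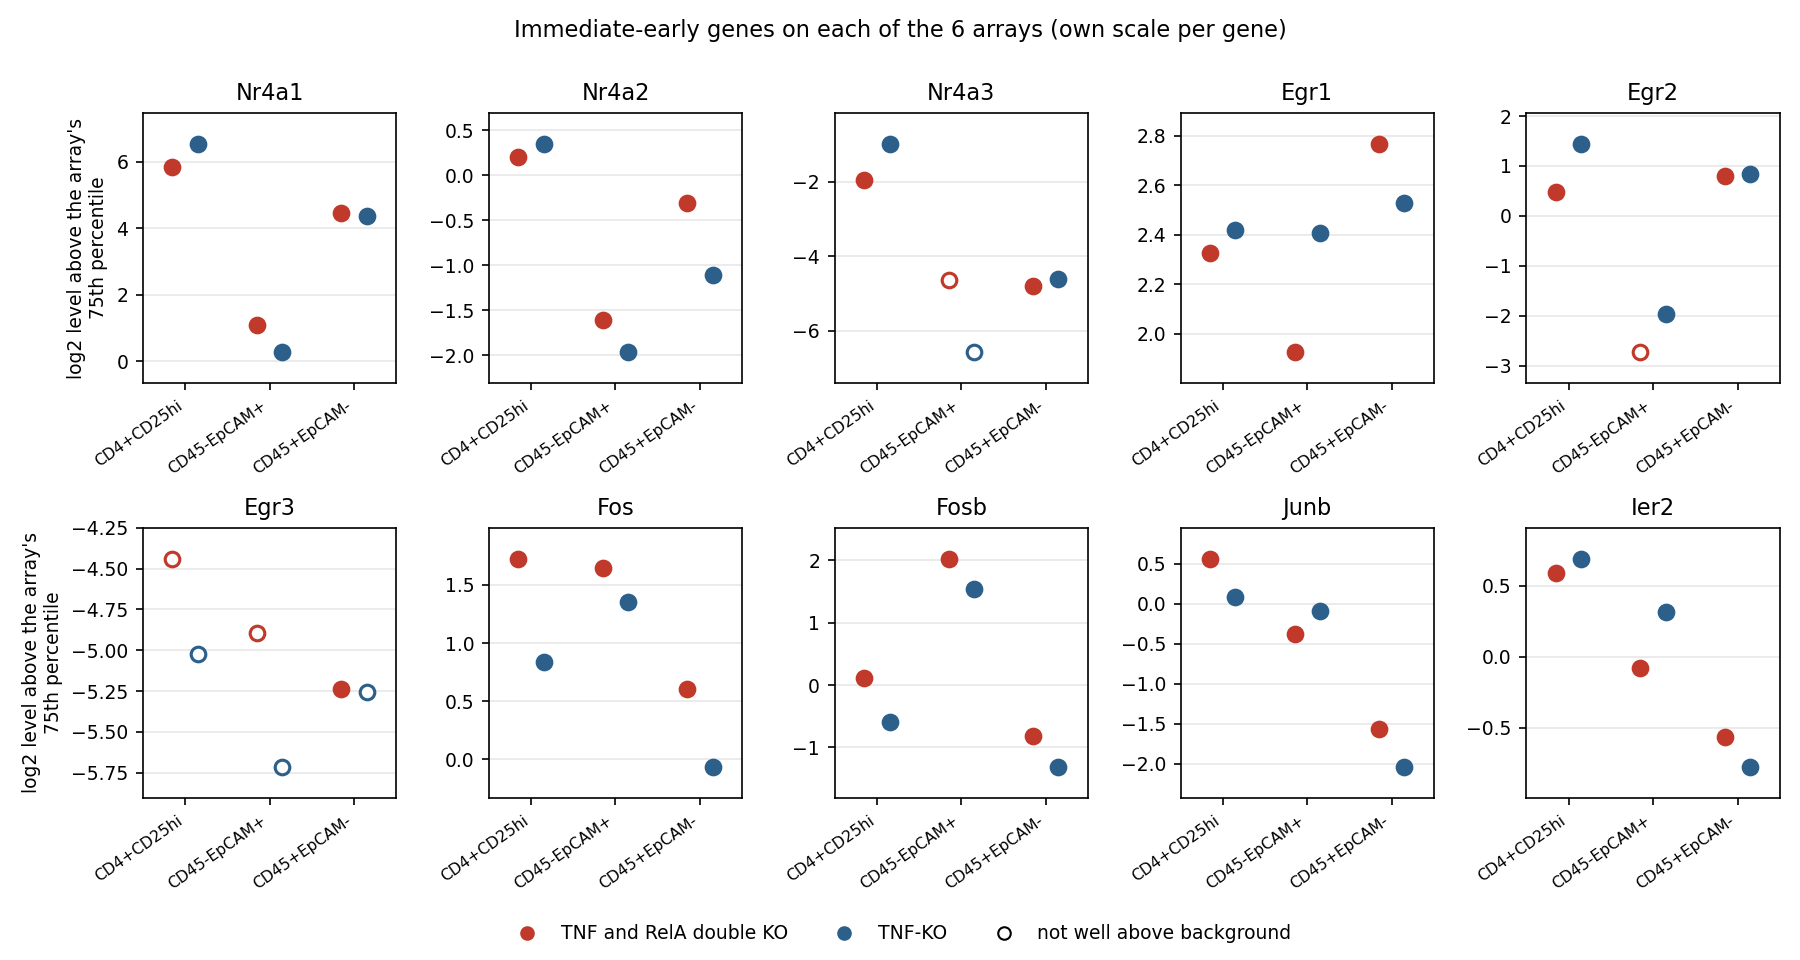
Level of each of the 10 immediate-early genes (log2 signal above the 75th percentile of the array, vertical axis, own scale per gene) on the DKO (red) and TNF-KO (blue) array of the 3 populations, 1 point per array. Open points were not well above background: Egr3 is open on all arrays but that of DKO CD45+EpCAM- cells, Nr4a3 is open on both CD45-EpCAM+ arrays, and Egr2 on the DKO array of these cells.

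Nr4a1, the orphan receptor also known as Nur77 and the usual reporter gene of T cell receptor signalling, was the member whose level varied most between populations among those above background on all 6 arrays. Its level was 5.83 on the DKO and 6.53 on the TNF-KO array of CD4+CD25hi cells, 1.09 and 0.28 in CD45-EpCAM+ cells, and 4.47 and 4.36 in CD45+EpCAM- cells. Both CD4+CD25hi arrays lay above both CD45+EpCAM- arrays, and these above both epithelial arrays, with no overlap. The promoter of Nr4a1, 250 bases before to 50 bases after its start in RefSeq (build GRCm38.p6, + strand, chr15:101266596-101266895), is printed with that of Nr4a3 (+ strand, chr4:48045055-48045354), its partner in the family, because both were called higher in thymocytes than in epithelium. Nr4a2 was called higher in the same contrast, and its window, which holds no match to the motifs searched, is not printed. Capitals mark matches to motifs searched on both strands. These are the EGR motif GCGGGGGCG and the NF-kB motif in Nr4a1, and 3 copies of TGACGT, the core of the cyclic AMP response element, in Nr4a3.
Nr4a1: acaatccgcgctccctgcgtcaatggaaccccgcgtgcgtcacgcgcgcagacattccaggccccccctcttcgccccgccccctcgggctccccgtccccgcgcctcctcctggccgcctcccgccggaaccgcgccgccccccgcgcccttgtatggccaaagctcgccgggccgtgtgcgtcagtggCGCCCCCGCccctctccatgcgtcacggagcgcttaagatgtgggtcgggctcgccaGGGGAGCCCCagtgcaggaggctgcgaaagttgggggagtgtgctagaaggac
Nr4a3: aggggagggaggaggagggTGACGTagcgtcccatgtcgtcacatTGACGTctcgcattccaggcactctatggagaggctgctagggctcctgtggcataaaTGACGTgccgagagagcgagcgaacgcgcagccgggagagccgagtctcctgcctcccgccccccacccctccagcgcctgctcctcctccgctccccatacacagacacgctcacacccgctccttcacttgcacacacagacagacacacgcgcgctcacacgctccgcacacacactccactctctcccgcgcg
Over 32851 promoter windows of this length, 2.91% hold GCGGGGGCG, 8.46% the NF-kB motif and 7.51% TGACGT. A match describes these letters and is not a binding site.

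In CD4+CD25hi minus CD45-EpCAM+ cells Nr4a1 averaged 6.18 ± 0.50 and 0.69 ± 0.58 (SD over the 2 genotypes, n = 2 arrays per population), a difference of 5.49 (SE 0.41, limma adjusted p = 0.00317) or 45.0-fold. In a bulk sample fewer cells that express a gene and less RNA per cell cannot be told apart. CD45-EpCAM+ cells were also below CD45+EpCAM- cells in Nr4a1, with a difference of -3.73 (SE 0.41, adjusted p = 0.00621). The difference between the thymocytes and the CD45+EpCAM- cells, 1.76 (SE 0.41), missed the threshold (adjusted p = 0.0685).

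Nr4a3 was bright enough to be measured in CD4+CD25hi cells, at -1.96 on the DKO and -0.99 on the TNF-KO array. It was not well above background on either CD45-EpCAM+ array and stood at -4.80 and -4.61 on the DKO and TNF-KO arrays of CD45+EpCAM- cells. Counting each epithelial array at its lowest level well above background gave a bound of 5.0-fold for the thymocytes above the epithelial cells. This bound is a convention and not a strict limit. On the DKO epithelial array that level was -2.82, and some genes not well above background lay above it, such as Zfp36 at -2.22. The limma fit used the dim values themselves, with means of -1.47 ± 0.68 and -5.60 ± 1.36. Its difference was 4.13 (SE 0.78, adjusted p = 0.0187), to which the bound has no p-value of its own. With normexp background correction the difference was 0.95 and did not pass (adjusted p = 0.132). Against CD45+EpCAM- cells the difference was 3.23 (SE 0.78), which did not pass (adjusted p = 0.0733). Each array carries 10 spots of the Nr4a3 probe. In CD4+CD25hi cells the SD over spots was 0.086 on the DKO and 0.060 on the TNF-KO array, and in CD45+EpCAM- cells 9 of 10 spots were above background on either array.

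Nr4a2 kept the order of Nr4a1 with smaller steps. It was at 0.20 on the DKO and 0.35 on the TNF-KO array of CD4+CD25hi cells, -1.61 and -1.96 in CD45-EpCAM+ cells, and -0.31 and -1.11 in CD45+EpCAM- cells. CD4+CD25hi cells were 2.06 above CD45-EpCAM+ cells (SE 0.27, adjusted p = 0.00848), and CD45-EpCAM+ cells were below CD45+EpCAM- cells, with a difference of -1.07 (SE 0.27, adjusted p = 0.0377). The last call was lost with normexp (-0.46, adjusted p = 0.160), with median centring (adjusted p = 0.0657) and without a filter on dim genes (adjusted p = 0.0551). Nr4a2 was the only member with a second probe. That probe was at -1.74 on the DKO and -1.65 on the TNF-KO array of CD4+CD25hi cells and at -1.97 and -2.75 in CD45+EpCAM- cells, so the sign of the genotype difference was the same by both probes in these populations.

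Egr2, which restrains effector genes in T cells and takes part in their selection, also separated the epithelial cells from both other populations. Its level was 0.47 on the DKO and 1.44 on the TNF-KO array of CD4+CD25hi cells and 0.80 and 0.84 in CD45+EpCAM- cells. The epithelial arrays were lower, at -2.73 on the DKO array, which was not well above background, and -1.97 on the TNF-KO array. The 4 arrays of the other populations lay above both. CD4+CD25hi cells exceeded CD45-EpCAM+ cells by 3.31 (SE 0.28, adjusted p = 0.00382), and CD45-EpCAM+ cells were below CD45+EpCAM- cells, with a difference of -3.17 (SE 0.28, adjusted p = 0.00450). Both values take in the dim DKO epithelial array, and with normexp they were 2.12 and -2.03, still past the threshold. CD4+CD25hi and CD45+EpCAM- cells overlapped in Egr2 and differed by 0.13 (SE 0.28, adjusted p = 0.770). RefSeq gives 5 start windows for Egr2. Printed is 1 of those that hold both a CArG box, the element bound by the serum response factor, and TGACGT (GRCm38.p6, + strand, chr10:67537619-67537918). Both are in capitals, and they begin 72 and 56 bases before the start site of this window. In another, overlapping window they begin 133 and 117 bases before its start site. Of all windows 1.63% hold a CArG box.
Egr2: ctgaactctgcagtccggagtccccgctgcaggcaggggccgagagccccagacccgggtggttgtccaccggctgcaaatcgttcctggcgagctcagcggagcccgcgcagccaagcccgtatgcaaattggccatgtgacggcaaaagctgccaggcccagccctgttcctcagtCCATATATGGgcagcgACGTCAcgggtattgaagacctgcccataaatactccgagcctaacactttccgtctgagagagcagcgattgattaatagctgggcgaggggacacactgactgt

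Egr1, induced by mitogens in most cell types, varied little between populations. It was at 2.33 on the DKO and 2.42 on the TNF-KO array of CD4+CD25hi cells, 1.93 and 2.40 in CD45-EpCAM+ cells, and 2.77 and 2.53 in CD45+EpCAM- cells. Its widest population difference was -0.48 for CD45-EpCAM+ minus CD45+EpCAM- cells (SE 0.22, adjusted p = 0.142), and it passed in no contrast. Egr3, a relative of Egr2 with overlapping functions in thymocytes, was well above background only on the DKO array of CD45+EpCAM- cells and was not fitted. Its levels lay between -5.71 and -4.44 on the 6 arrays, which carries no order.

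The AP-1 genes had another order. Fosb was highest in the epithelial cells, at 2.02 on the DKO and 1.53 on the TNF-KO array, against 0.10 and -0.58 in CD4+CD25hi cells and -0.82 and -1.31 in CD45+EpCAM- cells. The 3 pairs of arrays did not overlap. CD4+CD25hi cells were below CD45-EpCAM+ cells in Fosb, with a difference of -2.02 (SE 0.13, adjusted p = 0.00259), and CD45-EpCAM+ cells were above CD45+EpCAM- cells by 2.84 (SE 0.13, adjusted p = 0.00218). The difference between CD4+CD25hi and CD45+EpCAM- cells, 0.82 (SE 0.13, adjusted p = 0.0380), stayed under 2-fold.

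Fos, the partner that forms AP-1 with Jun proteins, was at 1.72 on the DKO and 0.83 on the TNF-KO array of CD4+CD25hi cells, 1.65 and 1.36 in CD45-EpCAM+ cells, and 0.61 and -0.064 in CD45+EpCAM- cells. The thymocyte and epithelial arrays overlapped. CD45-EpCAM+ cells were 1.23 above CD45+EpCAM- cells (SE 0.20, adjusted p = 0.0129; 0.93 and so under 2-fold with normexp), and CD4+CD25hi cells were 1.01 above them, just short of the threshold (SE 0.20, adjusted p = 0.0509). The promoters of Fos (GRCm38.p6, + strand, chr12:85473640-85473939) and Fosb (- strand, chr7:19309996-19310295) are printed because these genes had the largest common genotype differences in the higher direction among the members. Capitals mark the NF-kB motif in both, TGACGT in Fos and GCGGGGGCG in Fosb.
Fos: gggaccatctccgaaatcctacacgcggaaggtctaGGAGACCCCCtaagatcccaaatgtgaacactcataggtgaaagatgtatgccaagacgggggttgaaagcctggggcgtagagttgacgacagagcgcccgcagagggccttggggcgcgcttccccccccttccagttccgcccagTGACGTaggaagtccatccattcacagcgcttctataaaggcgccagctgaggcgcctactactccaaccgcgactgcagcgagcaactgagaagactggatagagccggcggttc
Fosb: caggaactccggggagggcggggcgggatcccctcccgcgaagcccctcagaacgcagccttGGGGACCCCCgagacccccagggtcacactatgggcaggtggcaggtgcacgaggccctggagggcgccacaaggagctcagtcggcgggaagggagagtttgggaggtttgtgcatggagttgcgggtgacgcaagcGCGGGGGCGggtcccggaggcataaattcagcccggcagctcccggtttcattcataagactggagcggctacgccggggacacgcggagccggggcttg
The NF-kB motif begins 214 bases before the start in Fos and 188 in Fosb. Of the 7 members whose promoter windows were searched 4 hold it in at least 1 window (Nr4a1, Egr2, Fos and Fosb). The share over all windows, 8.46%, counts windows and not genes. Egr2 has several windows, and its match lies in a window that is not printed. None of the 7 holds the AP-1 motif TGANTCA (7.81% of all windows), the Nr4a motif AAAGGTCA (1.51%) or the EGR motif GCGTGGGCG (0.612%). The windows of Nr4a2 and Junb hold none of the motifs searched.

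Junb, an AP-1 subunit that often restrains the activity of Jun, was at 0.56 on the DKO and 0.084 on the TNF-KO array of CD4+CD25hi cells, -0.38 and -0.093 in CD45-EpCAM+ cells, and -1.57 and -2.04 in CD45+EpCAM- cells. Both CD45+EpCAM- arrays were the lowest. Junb was 2.13 higher in CD4+CD25hi than in CD45+EpCAM- cells (SE 0.26, adjusted p = 0.0240) and differed by 1.57 in CD45-EpCAM+ minus CD45+EpCAM- cells (SE 0.26, adjusted p = 0.0136). Ier2 ran alongside, with 0.59 and 0.69 on the DKO and TNF-KO arrays of CD4+CD25hi cells, -0.080 and 0.32 in CD45-EpCAM+ cells, and -0.57 and -0.78 in CD45+EpCAM- cells. Ier2 passed in CD4+CD25hi against CD45+EpCAM- cells, at 1.31 (SE 0.20, adjusted p = 0.0331), and in CD45-EpCAM+ against CD45+EpCAM- cells its difference of 0.79 (SE 0.20, adjusted p = 0.0365) was under 2-fold.

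Counted over the 9 members that could be fitted, 4 passed as higher and 1 (Fosb) as lower in CD4+CD25hi minus CD45-EpCAM+ cells, where 18.3% of all 13743 genes passed as higher and 20.7% as lower. In CD4+CD25hi against CD45+EpCAM- cells 2 were higher, beside 4.8% of all genes higher and 7.81% lower. In CD45-EpCAM+ against CD45+EpCAM- cells 3 were higher (Fos, Fosb, Junb) and 3 lower (Nr4a1, Nr4a2, Egr2), beside 19.4% and 19.2% of all genes. The p-values in these contrasts take their error from the unevenness of the genotype difference across populations, with 2 residual degrees of freedom, and measure only the spread between these arrays. The thymocyte calls against CD45+EpCAM- cells were lost when any 1 of the 4 arrays concerned was left out, whereas 5 members passed without either epithelial array. Without the TNF-KO CD4+CD25hi array the call of Nr4a3 against CD45-EpCAM+ cells was lost and the other 4 remained. Between the stromal fractions the call of Nr4a2 was lost without any 1 of the 4 arrays concerned, and that of Fos without the TNF-KO CD45-EpCAM+ array, while Nr4a3 and Ier2 passed without the DKO CD45-EpCAM+ array. Without either CD45+EpCAM- array 2 of the 6 calls between the stromal fractions remained, Egr2 and Fosb. Centring on the median of the probes above background moved the split of all genes in CD4+CD25hi minus CD45-EpCAM+ cells to 1841 higher and 3236 lower, against 2511 and 2839, and in CD45-EpCAM+ minus CD45+EpCAM- cells to 3103 higher and 1956 lower, against 2665 and 2636. The members' split then stood at 4 and 1 in the first contrast and at 4 and 2 in the second. Quantile normalization moved the splits of all genes the other way, to 3057 higher and 2467 lower and to 2337 higher and 3190 lower, and the members' splits stood at 4 and 1 and at 3 and 4.

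**Figure D2:**
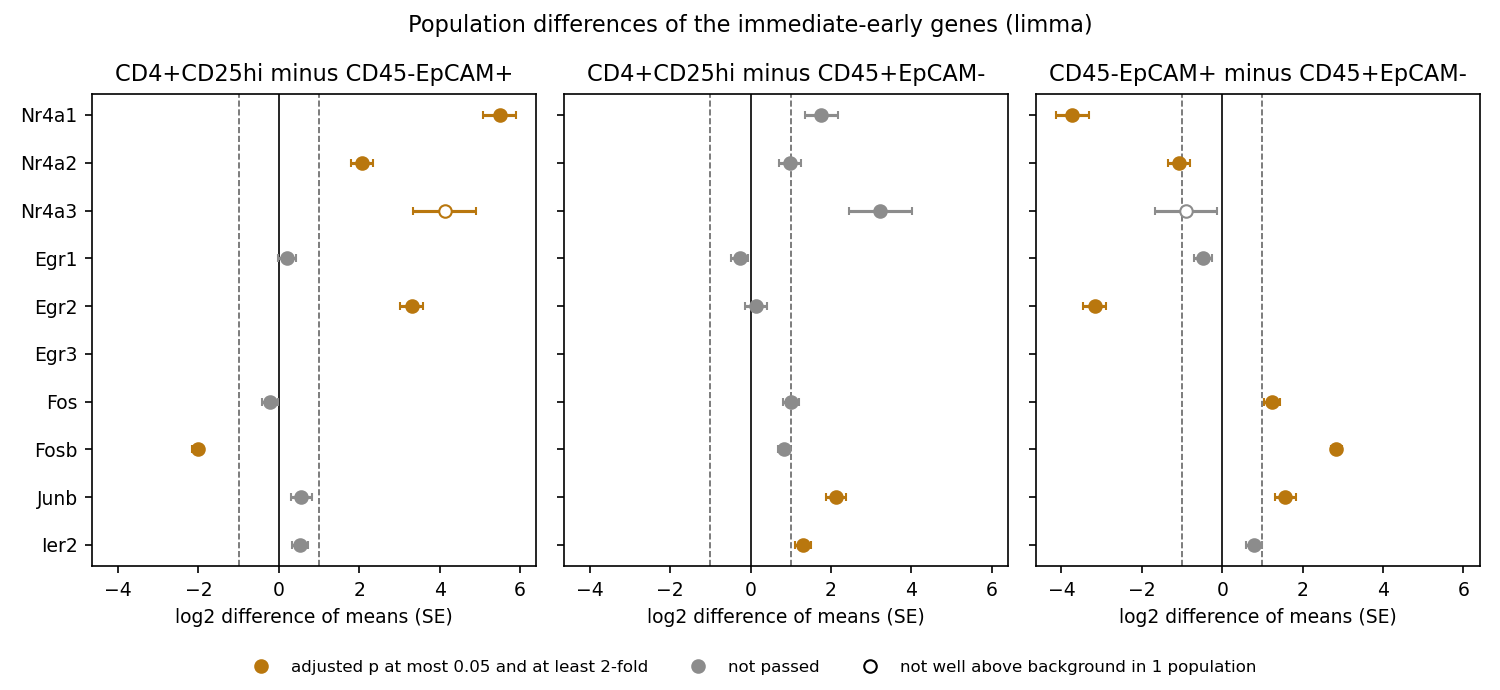
Difference between populations for the 9 fitted members (log2 difference of means over both genotypes, horizontal axis, bars show the SE from limma) in the 3 contrasts, with dashed lines at 2-fold. Nr4a1, Nr4a2 and Egr2 lie right of 0 in the first panel and left of it in the third, and Fosb lies on the opposite side in each.

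Between the genotypes, no member reached a 2-fold difference in any population. In CD4+CD25hi cells 9 members could be compared, and 0 were at least 2-fold apart, beside 1.68% of all genes 2-fold higher and 1.28% 2-fold lower in DKO cells. Egr2 and Nr4a3 were lower in DKO thymocytes, each with a difference of -0.97 (1.96-fold and 1.95-fold). Of all measured genes, 1.37% and 1.40% were at least as far lower in DKO cells, a share that leaves out genes as far higher. Nr4a1 was lower too, at -0.71 or 1.63-fold. On the other side, Fos was higher by 0.89 (1.85-fold), Fosb by 0.69 (1.61-fold) and Junb by 0.48 (1.39-fold) in DKO thymocytes. Nr4a2, Egr1 and Ier2 lay within 0.15 of no difference. The SD of the genotype difference between probes of 1 gene was 0.22 in this population, over 3112 genes with several probes. The difference of Nr4a3, the dimmest of these, was -0.53 with background correction by normexp. That SD covers technical spread only and not the spread between pools of cells.

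In CD45-EpCAM+ cells 8 members could be compared and 0 were 2-fold apart, beside 5.1% of all genes 2-fold higher and 9.3% 2-fold lower. Nr4a1 was higher by 0.81 in DKO cells (1.76-fold), where the T cell markers also stood at 94.9 on the DKO and 50.4 on the TNF-KO array. Granulocyte markers summed to 8.24 on the DKO and 31.5 on the TNF-KO array, with 4 of 4 at least 2-fold lower. The 5 fibroblast and endothelial markers summed to 10.02 and 4.69 (3 and 4 above background), and 2 erythroid markers to 12.9 and 6.07 (1 above background on either array). The part of these markers in the differences of this population was not tested. Egr2 was lower by a bound of 1.69-fold, since only the TNF-KO array was above background. Its DKO array was counted at its own dim value. Fosb (0.49), Nr4a2 (0.35) and Fos (0.29) were higher, and Egr1 (-0.48), Ier2 (-0.40) and Junb (-0.29) lower, with a probe SD of 0.32. The value of Nr4a2 was -0.32 as a mean over both probes, and with normexp Fos was at -0.023, Fosb at 0.12 and Egr1 at -0.84. Here the median of the members was 0.00066, between limits of -0.30 and 0.29 over the alternative settings, and DKO signal was the dimmest of the series.

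In CD45+EpCAM- cells all 10 members could be compared, Egr3 by a bound of 1.01-fold higher. Of them 0 were 2-fold apart, beside 1.82% of all genes 2-fold higher and 2.08% 2-fold lower. Nr4a2 was higher by 0.80 (1.74-fold), Fos by 0.67 (1.59-fold), Fosb by 0.49 and Junb by 0.47 in DKO cells. Egr1 (0.24), Ier2 (0.21), Nr4a1 (0.11), Egr2 (-0.038) and Nr4a3 (-0.19) were closer to 0, with a probe SD of 0.21. The DKO array of this fraction had more granulocyte signal, 22.3 against 5.95 in TNF-KO cells. It had more macrophage signal, 11.7 against 7.44, although Lyz2 was lower, at -1.69 against -1.32. B cell signal was lower, at 2.14 against 3.77. All 5 dendritic cell markers were lower, 2 of them at least 2-fold, where 7470 of all 14588 genes were lower. The part of these markers in the members' values was not tested. The members' median was 0.23, against -0.0064 over all genes, while in CD4+CD25hi cells it was -0.10, against -0.016.

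**Figure D3:**
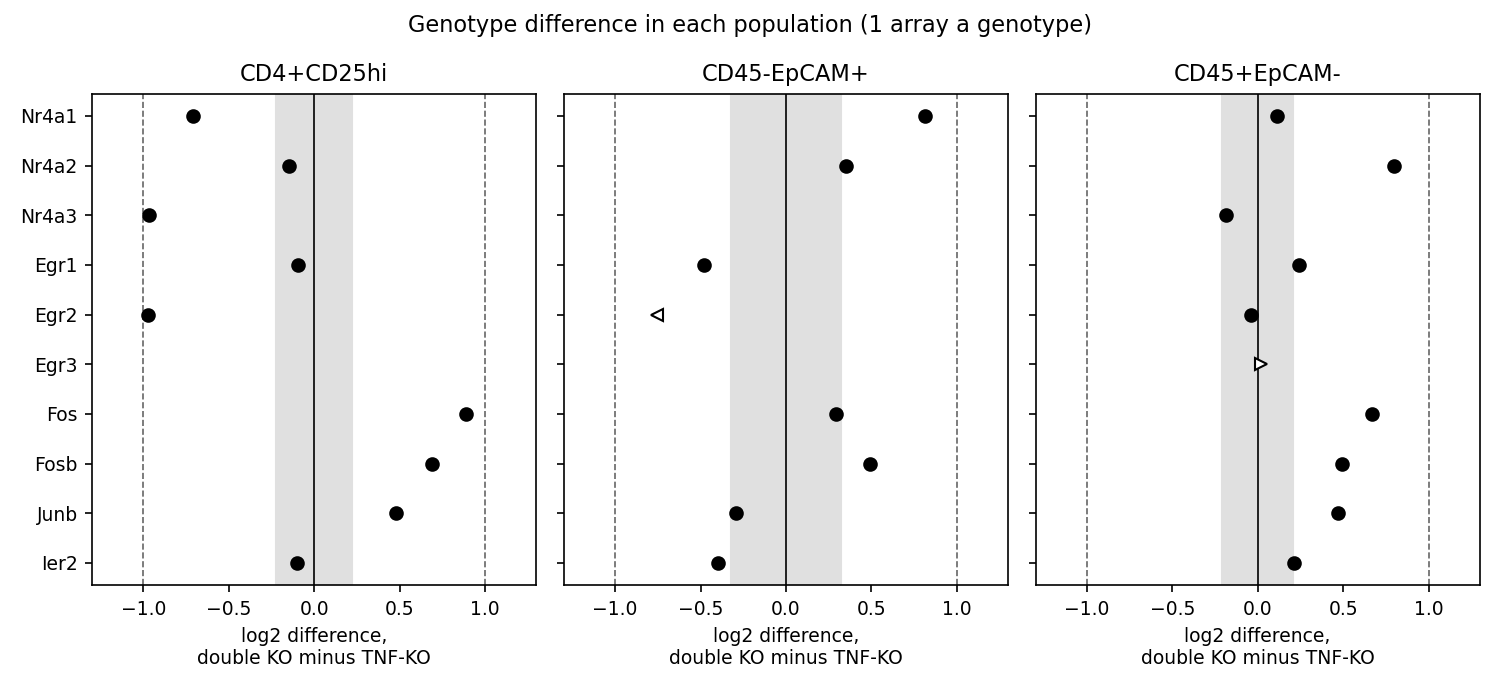
Genotype difference of each member (log2, DKO minus TNF-KO, horizontal axis) in the 3 populations, 1 array a genotype. The grey band is the SD between probes of 1 gene, dashed lines mark 2-fold, and open triangles are bounds. In CD4+CD25hi cells Egr2 and Nr4a3 lie at -0.97 and Fos at 0.89.

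With limma, a genotype difference shared by the populations was estimated for the same 9 members, and 0 passed an adjusted p of 0.05, as did 0% of all genes in either direction. At an unadjusted p under 0.05 the fit counted 525 genes higher (3.82%) and 348 lower (2.53%) in DKO cells, and Fos and Fosb were 2 of those higher. Fos was higher by 0.62 (SE 0.16, adjusted p = 0.679), with means of 1.33 on the 3 DKO and 0.71 on the 3 TNF-KO arrays. Fosb was higher by 0.56 (SE 0.11, adjusted p = 0.679), with means of 0.44 and -0.12. Both were higher on the DKO array of all 3 populations, apart from Fos in CD45-EpCAM+ cells with normexp. Egr2 was at -0.59 (SE 0.23, adjusted p = 0.679), and the other 6 members lay between -0.11 and 0.34.

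Other genes that the same signals reach give a setting for these values, and none of them passed the common fit. The list counts in CD4+CD25hi cells stand beside 1.68% of all genes 2-fold higher and 1.28% 2-fold lower in DKO cells. Of 17 other immediate-early transcription factors measured in CD4+CD25hi cells 0 were 2-fold apart, and their median was 0.011. Nab2, a corepressor that binds Egr proteins and is itself induced by them, was at 2.65 on the DKO and 3.48 on the TNF-KO array, a difference of -0.83, while Jun was at 5.24 and 4.85. Of 27 other immediate-early regulators 0 were 2-fold apart, with a median of -0.13. Dusp1, a phosphatase that switches MAP kinases off, was at 2.32 on the DKO and 1.37 on the TNF-KO array, and its difference of 0.95 was the largest of this list. All 20 genes read as a measure of T cell receptor strength were measured, 0 were 2-fold higher and 2 2-fold lower, with a median of -0.11. Those were the inhibitory receptors Lag3 (-3.04 on the DKO and -1.75 on the TNF-KO array) and Pdcd1 (1.39 and 2.45), although with normexp both were under 2-fold, Lag3 at -0.52 and Pdcd1 at -0.93, and Pdcd1 was at -0.99 with quantile normalization. Id3, an inhibitor of E proteins downstream of Egr genes, was at 1.93 and 2.73, whereas Slamf6, Id2 and Cd69 were higher by 0.96, 0.89 and 0.72. Over this list 5 genes were higher and 15 lower, beside 6185 and 6751 of all genes. Of 26 genes of calcium, MAP kinase and serum response factor signalling 0 were 2-fold apart, with a median of -0.077. The 10 measured heat shock genes also held 0 at 2-fold, and 9 of them were lower, with a median of -0.21, where 6751 of all 12936 genes were lower. The 1 that was higher, Hspb1, differed by 0.96 (0.21 to 0.99 over the alternative settings).

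**Figure D4:**
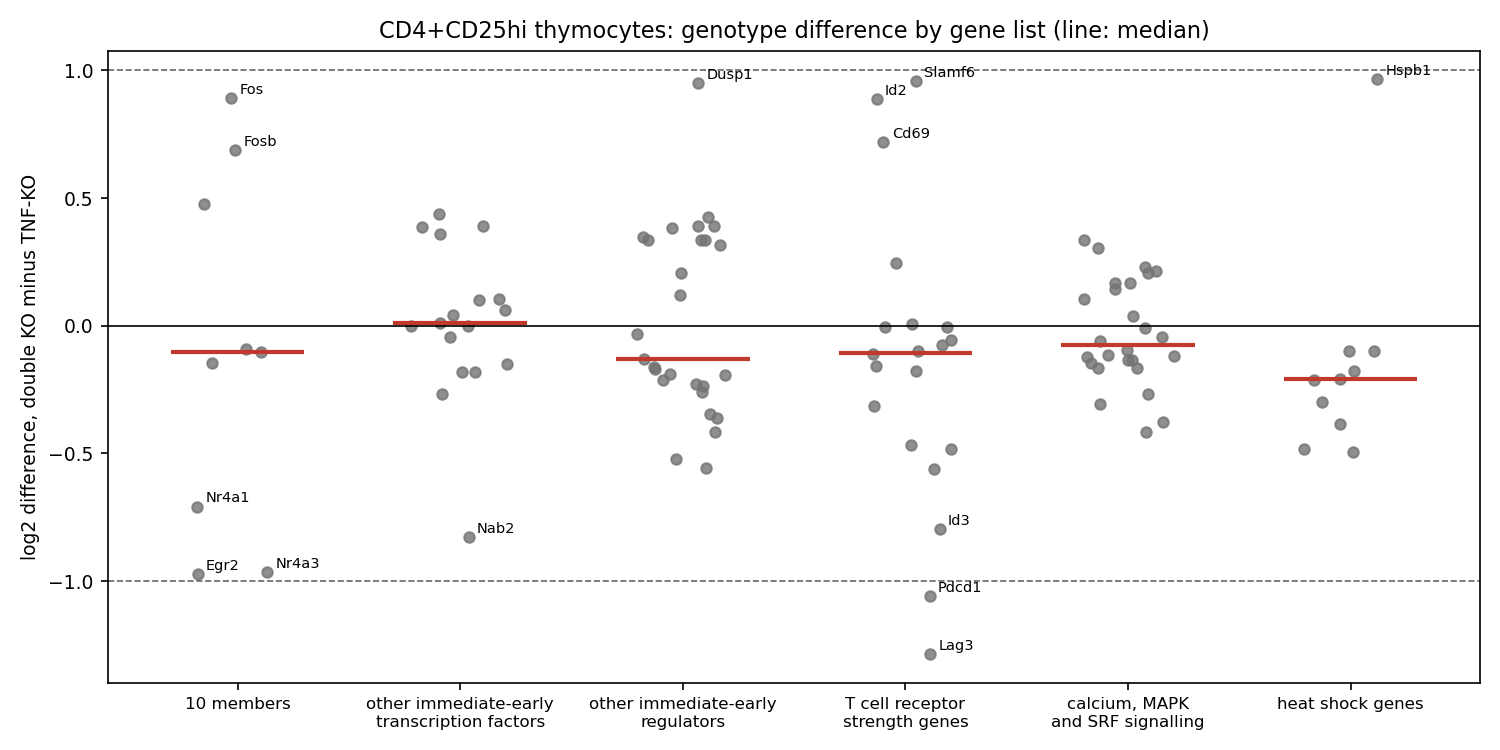
Genotype difference in CD4+CD25hi thymocytes (log2, DKO minus TNF-KO, vertical axis) for the 10 members and 5 gene lists, with 1 point per measured gene, a red line at the median of each list and dashed lines at 2-fold. Genes at least 0.6 from 0 are named, and Lag3 and Pdcd1 lie beyond the lower 2-fold line.

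Of the lists in the stromal fractions some genes lay beyond 2-fold, beside 5.1% of all genes 2-fold higher and 9.3% 2-fold lower in CD45-EpCAM+ cells. There 0 of 17 transcription factors were 2-fold higher and 1 lower, Irf4, at -0.85 on the DKO and 1.17 on the TNF-KO array, and 5 of 29 regulators were 2-fold higher and 5 lower. Ccn2 and Ccn1, matrix proteins that respond to the serum response factor, were higher by 2.44 and 1.89, and the stress sensor Gadd45b and the phosphatase Dusp4 were lower, at -1.95 and -1.59. Of the 18 receptor strength genes measured in CD45-EpCAM+ cells 3 were 2-fold higher and 1 lower, with a median of 0.52 against 0.033 over all genes. In CD45+EpCAM- cells Egr4, a further Egr gene, was higher by 1.05 (0.44 with normexp). It was the 1 transcription factor of 18 beyond 2-fold there, beside 1.82% of all genes 2-fold higher and 2.08% 2-fold lower. Dusp1 was higher by 0.90 there and by 0.22 in CD45-EpCAM+ cells, so that its sign was the same in all 3 populations. Between populations, 14 of the 20 receptor strength genes passed as higher and 1 as lower in CD4+CD25hi minus CD45-EpCAM+ cells (median 3.14), beside 18.3% and 20.7% of all genes. In CD4+CD25hi minus CD45+EpCAM- cells 5 passed as higher and 1 as lower (median 0.76), beside 4.8% and 7.81%. In CD45-EpCAM+ minus CD45+EpCAM- cells 2 passed as higher and 13 as lower (median -2.18), beside 19.4% and 19.2%. The 4 T cell markers all passed as higher in the first of these contrasts (median 2.01) and as lower in the third (median -2.11), and 0 passed in the second (median 0.15). Their part in the list values, and in those of Nr4a1 and Egr2, was not tested. Of the transcription factors, Atf3 averaged -4.77 in CD4+CD25hi cells, -0.47 in the epithelial cells and -3.40 in CD45+EpCAM- cells. It had its highest level in the epithelial cells, as Fosb did, and was not well above background in CD4+CD25hi cells. Jun differed by 4.16 in CD45-EpCAM+ minus CD45+EpCAM- cells (SE 0.14, adjusted p = 0.00183) and by 3.45 in CD4+CD25hi minus CD45+EpCAM- cells (SE 0.14, adjusted p = 0.00919). The 11 heat shock genes summed to 421 on the DKO and 490 on the TNF-KO array of CD4+CD25hi cells, 346 on both of CD45-EpCAM+ cells, and 386 and 429 of CD45+EpCAM- cells.

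Over the 6 arrays, 1897 genes were above background throughout and varied by an SD of at least 1. Those whose level followed Egr2 most closely were Id3 (Pearson r = 0.990), Nab2 (0.990) and Il21r (0.987). For Nr4a1 they were Ppp1r16b (0.999), Ctsw (0.998) and Unc13d (0.997), and for Fos Arrdc4 (0.978), Magi1 (0.956) and C1qtnf4 (0.933). For the mean of the 7 members above background on all 6 arrays, D630039A03Rik and Ttc28 (0.983 each) and Cyth3 (0.969) were closest. The arrays of a population share a slide, and with 6 points such coefficients only describe these arrays.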

How the data were processed

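The measurements are probe intensities from 6 Agilent mouse arrays, 1 colour each. The deposited scanner files hold intensity values that the authors extracted with Feature Extraction, version 10.5.1.1 per the file headers and 9.5 per the submitters' processing notes. The deposited value table appears to be log2, a scale not given in the sources used here: it equalled log2 of the processed signal minus the 75th percentile of the array within a fixed offset of at most 0.0054, and served as an alternative. Its column medians ran from -3.71 to -2.72, and centring on genes was not found.

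Control spots and outlier flags were left out, spots of a probe were averaged, and log2 of the processed signal (corrected for background by the scanner software) minus the 75th percentile of the array was used. Of 39419 probes used, 27472 had 1 symbol through a gene table of assembly GRCm38.p6, 35 several and 11912 none. A gene entered a genotype comparison if well above background on at least 1 of both arrays. Where 1 array was dim, its value was replaced by the lowest level measured well above background on that array, unless its own was higher, and the result is called a bound. Some dim values lay above that lowest level, so a bound is a convention and not a strict limit. The common genotype effect (population as a block) and the population contrasts (genotype as a covariate) were fitted with limma 3.58.1 in R 4.3.3 over 13743 genes above background on at least 3 arrays, with 2 residual degrees of freedom, a prior of 1.74 and Benjamini-Hochberg adjustment. A population call needed an adjusted p of at most 0.05 and a 2-fold difference. The fit was tested on simulated data.

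The members, gene lists and tests were chosen with earlier results of these data known. All members are named, with up to 4 genes of each list by size of difference, Rela as the targeted gene, and 3 genes most like the members' mean, Nr4a1, Egr2 and Fos; of the lists only some of those genes are described. Jund and Hspa1b were not found by symbol. The alternatives were median centring, quantile normalization, normexp (on the median signals, as the files hold no mean signal column), the mean over probes, the deposited table, other filters, and leaving out each array. Promoters came from RefSeq (GRCm38.p6) and were searched for 7 motifs. Member windows were matched by symbol, and those on a single chromosome were left out. The matching and this exclusion together left 7 of 10 members, without Egr1, Egr3 and Ier2. The shares over all windows kept that chromosome, so a member without a window here may still have one in RefSeq.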

Additional observations from a re-analysis of the deposited data

Results flagged for a closer look

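The genotype difference of 3 members pointed in opposite directions in a pair of populations, each time by more than the probe-to-probe SD of its population, which covers technical spread only. With 1 array a genotype, none of these differences between populations was tested, and the spread between pools is unknown. Nr4a1 was lower in DKO CD4+CD25hi cells (-0.71) and higher in DKO CD45-EpCAM+ cells (0.81), a gap of -1.52 on the log2 scale. T cell markers summed to 94.9 on the DKO and 50.4 on the TNF-KO array of CD45-EpCAM+ cells, and to 252 and 267 in CD4+CD25hi cells. Egr1 was lower in DKO CD45-EpCAM+ cells (-0.48) and higher in DKO CD45+EpCAM- cells (0.24), a gap of -0.72. Its value in CD45-EpCAM+ cells was -0.84 with normexp. Ier2 did likewise, at -0.40 and 0.21, a gap of -0.61, and the 0.21 barely exceeded the probe SD of 0.206. The part of cell content and of array signal in these gaps was not tested.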

How the results depend on the processing

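The count of members at least 2-fold apart between genotypes stayed at 0 in every population and setting run, except for 1 in CD45-EpCAM+ cells with quantile normalization, where the bound of Egr2 was -1.0. The number of members that passed in CD4+CD25hi minus CD45-EpCAM+ cells was 5, and 3 among genes above background on all 6 arrays. In CD4+CD25hi minus CD45+EpCAM- cells it was 2, 0 without a filter on dim genes and 4 among genes above background on all 6 arrays, where fewer genes were tested. Leaving out 1 array gave 4 to 5 in the first contrast, 0 to 5 in the second, 2 to 7 in CD45-EpCAM+ minus CD45+EpCAM- cells and 0 to 0 in the common fit. No called value changed sign. Among uncalled values, Nr4a3 turned to -0.26 in the common fit with quantile normalization and to 0.88 in CD45-EpCAM+ minus CD45+EpCAM- cells with normexp, and Egr1 in CD4+CD25hi minus CD45-EpCAM+ cells turned to -0.011 with median centring and -0.075 with quantile normalization. Without 1 array the common effect ran from -0.30 to 0.46 in Nr4a1, -0.58 to 0.87 in Nr4a3, -0.29 to 0.074 in Egr1 and -0.25 to 0.055 in Ier2. Likewise Egr1 ran from -0.067 to 0.48 and Fos from -0.47 to 0.022 in CD4+CD25hi minus CD45-EpCAM+ cells, Egr2 from -0.28 to 0.55 in CD4+CD25hi minus CD45+EpCAM- cells, and Nr4a3 from -2.15 to 0.35 in CD45-EpCAM+ minus CD45+EpCAM- cells. The causes were not tested. Over all genes, the count of 2-fold genotype differences was 51 with normexp and 382 in the reported setting in CD4+CD25hi cells, 1043 and 1901 in CD45-EpCAM+ cells, and 174 and 568 in CD45+EpCAM- cells. No paired analysis was possible because the labels carry no replicate numbers, other than the common fit, which sets the genotypes against each other within each population. Signal over background was the limit for Egr3 and for Nr4a3 and Egr2 in CD45-EpCAM+ cells.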
